A study of Mus musculus with 8 samples.

Results

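The prohormone convertases and the enzymes that trim peptides after them were examined in hypocretin neurons of the mouse. 10 genes were chosen by name: the convertases Pcsk1, Pcsk2, Pcsk5, Pcsk6, Pcsk7 and Furin, the convertase inhibitor precursor Pcsk1n, the carboxypeptidases Cpe and Cpd, and the amidating enzyme Pam. All probe sets that the platform annotation gives 1 of these symbols alone were taken, which made 20 of the 45037 probe sets other than controls. They stand for 9 of the 10 genes, since none was listed under Pcsk2, and 18193 genes in all were named in this way on the array.

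The immunoprecipitates (IP, 4 samples) hold RNA bound to tagged ribosomes. In this method, translating ribosome affinity purification, a transgene tags the ribosomes of 1 cell type so that they can be pulled down. The unbound fractions (4 samples) are the RNA that stayed behind in the same 4 preparations, labelled as biological replicates, and stand for the whole tissue. Both fractions came from dissected diencephalon, thalamus with hypothalamus, of male and female adults 6 to 12 weeks old. The mice were of the bacterial artificial chromosome line Hcrt JD218 on a background labelled mixed Fvb and c57/bl6j, and 5 were pooled for each sample. All samples carry the transgene, so no precipitate from mice without it was among the arrays, and cell type and ribosome binding differ together between the fractions.

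Peptide hormones and neuropeptides are made as long precursors that enter the secretory pathway. In dense-core vesicles the convertases cut the precursor after pairs of basic residues, a carboxypeptidase removes the basic residues left at the new end, and the amidating enzyme turns a terminal glycine into an amide. Hypocretin-1 and hypocretin-2 are both amidated, and hypocretin-1 also has an N-terminal pyroglutamate, which glutaminyl cyclase forms. Furin and its relatives work earlier, in the trans-Golgi network and at the cell surface, and cut growth factors, receptors and proteases in most cell types.

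All values are log2 levels of the authors' GCRMA values, with 1 constant subtracted per group so that the biotinylated hybridisation controls have equal means. The linear value 50 (5.64 on the log2 scale) was taken as the lower limit of measurement. A level describes 1 probe set and cannot be set against that of another. A probe set was tested if at least 4 of the 8 arrays reached 50, and was called at a limma adjusted p (Benjamini-Hochberg over all 17865 tested probe sets) under 0.05 together with at least a 2-fold difference. Between 33.6% and 34.8% of probe sets on the IP arrays and between 40.5% and 40.9% on the unbound arrays reached 50. The precision is limited by the number of arrays. Hcrt, which checks the labels, stood at 15.10, 15.39, 15.43 and 15.50 in the IP samples, against 9.77, 10.10, 10.40 and 11.06 in the unbound samples.

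Of the 20 probe sets, 10 passed the filter, and these stand for 8 genes. The IP samples had higher levels of 3 of the 10 and lower levels of 4, while 3 were not called. Over all tested probe sets 4.88% were called higher and 45.1% lower. The median tested gene changed by -0.85 on the log2 scale, so a fold change near that value is the common one here. Counted by gene, each taken as its probe set with the highest mean, 3 of 8 were called higher (Pcsk1, Pcsk6 and Pam) and 2 lower (Pcsk5 and Cpd), beside 4.74% and 44.2% of all 10398 tested genes. Pam passed the filter through its IP samples alone and Pcsk7 through its unbound samples alone, which fixed their direction. With a minimum of 100 in place of 50 neither was tested, and 2 genes were called higher. The Pcsk5 probe set 1437339_s_at and the Cpd probe set 1434547_at reached 50 on 1 and 2 IP arrays and on all 4 unbound arrays. They too needed their unbound samples to pass. IP and unbound arrays were fully apart for 8 of the 10 probe sets, 3 with IP higher and 5 with IP lower, where 56.9% of all tested probe sets were apart, 6.85% with IP higher and 50.1% with IP lower. The median of the 8 genes was 0.06 on the log2 scale.

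**Figure D1:**
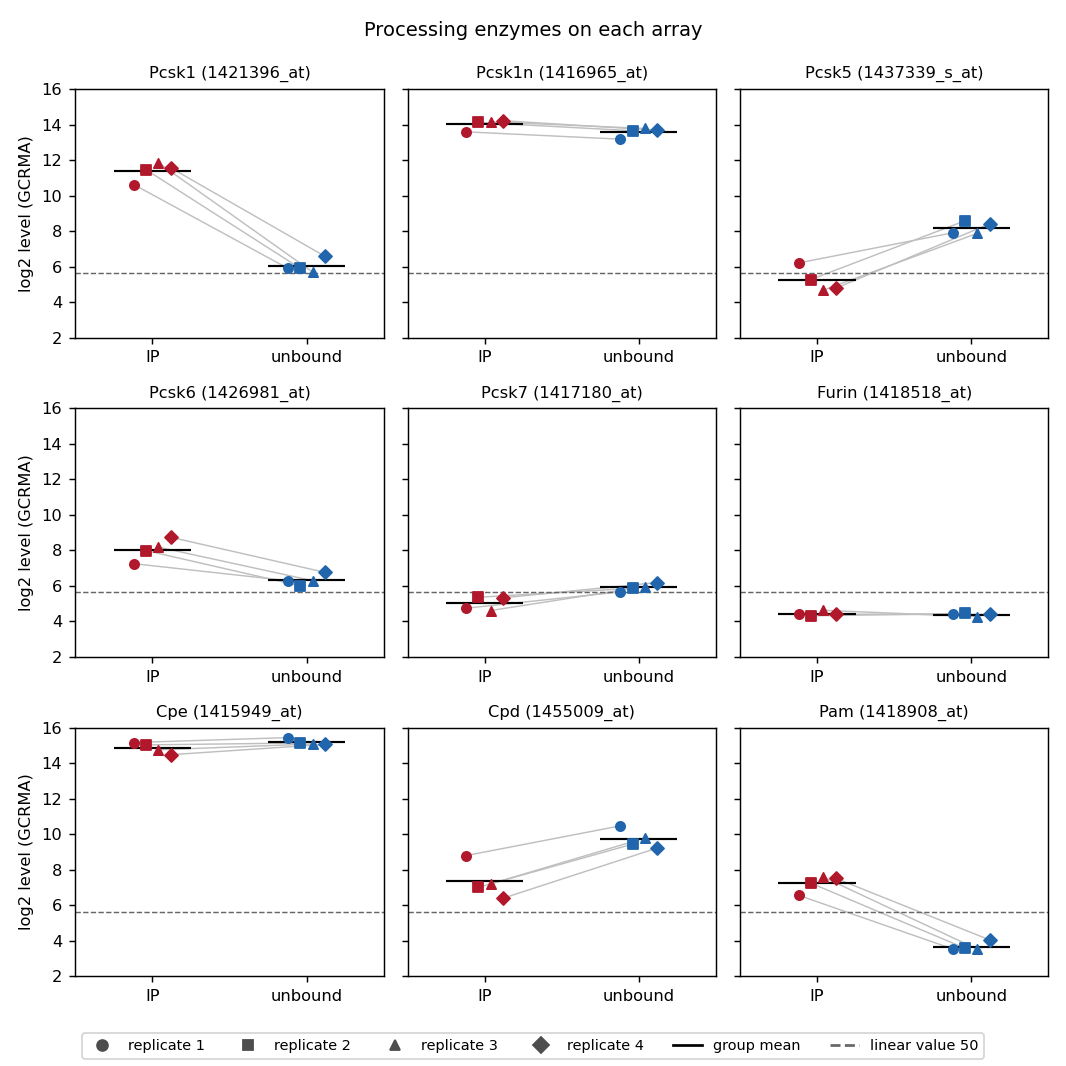
Log2 level (GCRMA, y axis) of 1 probe set for each of the 9 genes in the 4 IP and 4 unbound samples. Marker shapes give the replicate number, grey lines join the fractions of 1 preparation, bars are group means and the dashed line is the linear value 50. Pcsk1, Pcsk6 and Pam lie higher in all 4 IP samples, Pcsk5 and Cpd lower, and Furin lies under the line on all 8 arrays.

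Pcsk1, the convertase PC1/3 that makes the first cuts in many neuropeptide precursors, showed the largest difference of the 10 tested probe sets. It stood at 10.62, 11.46, 11.85 and 11.56 in the IP samples of replicates 1 to 4, against 5.90, 5.90, 5.69 and 6.58 in their unbound fractions. The groups lay far apart, with the lowest IP sample above the highest unbound sample. The unbound samples were just above the lower limit of measurement. Pcsk1 rose 41.0-fold, a log2 difference of 5.36 ± 0.32 (SE) with a 95% interval of 4.66 to 6.06, and its adjusted p from limma was 1.3e-06. Pcsk1 ranked 10 from the top among the fitted changes of 10398 genes. Within a preparation the IP sample was 26.5-, 47.2-, 71.5- and 31.7-fold higher.

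The sequences around the start sites of Pcsk1, of its inhibitor precursor Pcsk1n and of Pam are shown because they belong to the convertase with the largest difference, to its inhibitor precursor, which was not called, and to the amidating enzyme, whose fold is a lower bound. They are RefSeq windows of the build GRCm38.p6 that run from 250 bases before to 50 bases after the annotated start, written 5′ to 3′ along the gene. Capitals mark matches on either strand to the cyclic AMP response element TGACGTCA, its half-site TGACG, the homeobox core TAATTA and the TATA box TATAAA. The Pcsk1 window lies at chr13:75089607-75089906 (plus strand), the Pcsk1n window at chrX:7919572-7919871 (plus strand) and the Pam window at chr1:98095583-98095882 (minus strand).
Pcsk1: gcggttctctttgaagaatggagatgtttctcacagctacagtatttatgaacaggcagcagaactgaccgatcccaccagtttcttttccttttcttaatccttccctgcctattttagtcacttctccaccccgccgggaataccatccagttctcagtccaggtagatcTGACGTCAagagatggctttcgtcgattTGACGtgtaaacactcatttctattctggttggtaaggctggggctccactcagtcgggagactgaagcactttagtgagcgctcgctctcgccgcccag
Pcsk1n: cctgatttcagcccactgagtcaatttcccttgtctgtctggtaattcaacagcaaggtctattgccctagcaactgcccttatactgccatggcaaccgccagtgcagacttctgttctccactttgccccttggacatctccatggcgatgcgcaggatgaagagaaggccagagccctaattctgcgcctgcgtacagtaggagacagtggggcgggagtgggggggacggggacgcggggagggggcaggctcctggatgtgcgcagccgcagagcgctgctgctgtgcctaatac
Pam: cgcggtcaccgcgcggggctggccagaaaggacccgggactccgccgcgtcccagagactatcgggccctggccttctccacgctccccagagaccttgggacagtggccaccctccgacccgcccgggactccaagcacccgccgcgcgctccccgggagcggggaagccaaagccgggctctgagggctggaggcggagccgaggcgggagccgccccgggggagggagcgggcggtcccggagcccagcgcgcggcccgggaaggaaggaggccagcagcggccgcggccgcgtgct

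Windows were found for 9 of the 10 genes, 11 windows in all. The Pcsk1 window holds the full element TGACGTCA, starting 78 bases before the annotated start, and a further half-site TGACG at 50 bases before it. It was the 1 window of the 11 with the full element, which is found in 1.79% of 32851 windows of the same length. The half-site, which lies within the full element on both strands, was in 3 of the 11 and is found in 20.8% of all windows. Neither the Pcsk1n nor the Pam window holds any of these 4 motifs. The homeobox core, present in 5.29% of all windows, was in 0 of the 11, and the TATA box, found in 13.6% of all, was in 1. The share of G and C was 49.3% for Pcsk1, 58.7% for Pcsk1n and 77.3% for Pam, with a median of 52.7% over all windows. A match describes these letters only and shows no binding.

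Pcsk1n encodes proSAAS, a granin-like protein from which an inhibitory peptide for PC1/3 is cut. Its levels were 13.59, 14.12, 14.15 and 14.22 in the IP samples, against 13.18, 13.65, 13.78 and 13.68 in the unbound samples. The groups overlapped through IP replicate 1, yet within each preparation the IP sample was higher, by 1.33-, 1.38-, 1.30- and 1.45-fold. The log2 fold change was 0.45 ± 0.18 (SE), with a 95% interval of 0.04 to 0.86 and a limma adjusted p of 0.055. Pcsk1n was not called. With the replicate number as a block the limma adjusted p was 0.0025, still under 2-fold.

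The gap between enzyme and inhibitor does not depend on any constant added to an array, since both are read on the same one. It can change with a normalization that acts differently at low and high levels. With quantile normalization the log2 fold change moved from 5.36 to 6.34 for Pcsk1 and from 0.45 to 0.56 for Pcsk1n. The level of Pcsk1 minus that of Pcsk1n was higher in the IP sample by 4.31, 5.09, 5.79 and 4.45 on the log2 scale in the 4 preparations, a mean of 4.91 ± 0.68 (SD, n = 4). All 4 preparations went the same way. For Pcsk1 minus Cpe the same difference was 5.68 ± 0.61 (SD, n = 4). These are descriptions of genes chosen with the Pcsk1 value known and were not tested.

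Of the convertases other than Pcsk1, 1 was called higher and 1 lower, beside 4.74% and 44.2% of all tested genes. Furin and Pcsk7 gave little signal. Pcsk6, the convertase PACE4 that activates growth factors of the TGF-beta family, stood at 7.26, 7.99, 8.19 and 8.74 in the IP samples, against 6.29, 6.00, 6.29 and 6.76 in the unbound samples. Every IP sample lay above every unbound sample, with replicate 1 the closest. Pcsk6 rose 3.26-fold, a log2 difference of 1.71 ± 0.34 (SE), and limma gave an adjusted p of 0.0014. Within the preparations the IP sample was 1.95-, 3.98-, 3.71- and 3.94-fold higher. On the poly-A controls, another scaling, Pcsk6 lost its call and turned to -0.26 on the log2 scale (limma adjusted p = 0.46).

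Pcsk5, the convertase PC5/6, has 5 probe sets, of which 1 (1437339_s_at) was tested. It stood at 6.20, 5.27, 4.67 and 4.77 in the IP samples, against 7.90, 8.58, 7.88 and 8.41 in the unbound samples. The groups were apart, and only IP replicate 1 reached the lower limit of measurement. With IP values under that limit raised to it, the IP level was at least 5.34-fold lower, and the fit to the values as measured gave -2.97 ± 0.37 (SE, limma adjusted p = 8.9e-05). A second Pcsk5 probe set (1451406_a_at) reached the limit on 1 unbound array alone. It stood at 3.72, 2.44, 2.53 and 3.80 in the IP samples, against 5.41, 5.47, 4.01 and 6.06 in the unbound samples, again without overlap. The remaining 3 lay between 2.15 and 2.27 on all 8 arrays, at the floor of the authors' values.

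Pcsk6 and Pcsk5 were also set against each other on the same arrays, with Pcsk5 values under the lower limit of measurement raised to it. The level of Pcsk6 minus that of Pcsk5 was then higher in the IP sample by 2.66 in replicate 1, where all 4 values were above the limit, and by at least 4.94, 4.14 and 4.76 on the log2 scale in replicates 2 to 4. All 4 preparations went the same way. Pcsk6 was higher and Pcsk5 lower in every preparation, so this direction was given beforehand, and the difference was not tested.

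Pcsk7, the widely expressed convertase PC7, stood at 4.74, 5.36, 4.61 and 5.33 in the IP samples, against 5.66, 5.86, 5.97 and 6.19 in the unbound samples. All 4 unbound samples reached the lower limit of measurement and no IP sample did, so the probe set passed the filter through the unbound samples alone. The log2 difference of -0.91 ± 0.26 (SE) had a limma adjusted p of 0.01 but missed 2-fold, and against the limit the IP level was at least 1.22-fold lower. Its change was close to that of the median gene, with 47.9% of tested genes below it. Without IP replicate 2 or without IP replicate 4 it was called lower, at -1.02 and -1.01.

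Furin, which works in the trans-Golgi network and at the cell surface, was measured by 1 probe set. It lay between 4.32 and 4.63 in the IP samples and between 4.27 and 4.45 in the unbound samples. None of these 8 values reached the lower limit of measurement, so no fold is given.

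**Figure D2:**
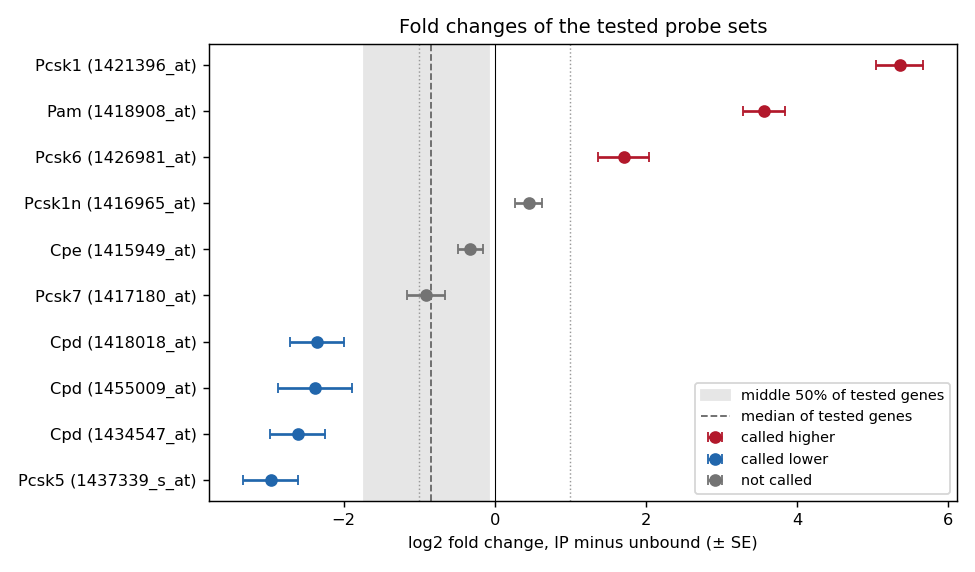
Log2 fold change (x axis, IP minus unbound, points with SE bars) of the 10 tested probe sets, named at the left. Dotted lines mark 2-fold, the dashed line the median of all tested genes (-0.85) and the grey band the middle 50% of them (-1.73 to -0.08). Pcsk1, Pam, Pcsk6 and Pcsk1n lie right of the band, the 3 Cpd probe sets and Pcsk5 left of it, and Pcsk7 and Cpe within it.

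The carboxypeptidases that follow the convertases differed from each other. Cpe, carboxypeptidase E, removes basic residues from the ends of peptides in the dense-core vesicle. It stood at 15.17, 15.04, 14.76 and 14.49 in the IP samples, against 15.45, 15.14, 15.09 and 15.07 in the unbound samples. The groups overlapped through IP replicate 1, while each IP sample was below its own unbound fraction. The log2 fold change was -0.32 ± 0.16 (SE), with a 95% interval of -0.68 to 0.04 and a limma adjusted p of 0.10. With the replicate number as a block the limma adjusted p was 0.015, still under 2-fold. On the poly-A controls Cpe was called lower, at -2.29 (limma adjusted p = 3e-07), as were 94.5% of all tested genes. The other Cpe probe set lay at the floor on all 8 arrays.

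Cpd, carboxypeptidase D, is a membrane enzyme of the trans-Golgi network with a like activity. Of its 7 probe sets 3 were tested and all 3 were called lower. The one with the highest mean (1455009_at) stood at 8.80, 7.01, 7.21 and 6.40 in the IP samples, against 10.48, 9.45, 9.79 and 9.23 in the unbound samples. The groups were apart, and replicate 1 was the highest in both. This probe set fell 5.21-fold, a log2 difference of -2.38 ± 0.49 (SE), with 0.0018 as its adjusted p from limma.

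A second Cpd probe set (1418018_at) stood at 6.71, 5.72, 6.88 and 5.87 in the IP samples, against 8.39, 8.14, 9.23 and 8.85 in the unbound samples. It fell 5.12-fold (limma adjusted p = 0.00029). The third (1434547_at) reached the lower limit of measurement in 2 of 4 IP samples and was at least 4.64-fold lower (limma adjusted p = 0.00018). Of the other 4, 1 reached the limit on 1 unbound array and 3 on none.

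Pam, the peptidylglycine alpha-amidating monooxygenase that makes the C-terminal amide, was measured by 1 probe set. It stood at 6.56, 7.25, 7.60 and 7.52 in the IP samples, against 3.54, 3.57, 3.52 and 4.04 in the unbound samples. All IP samples reached the lower limit of measurement and no unbound sample did, so Pam passed the filter through the IP samples alone. The IP level was at least 2.99-fold higher against that limit. The fit to the values as measured gave 3.56 ± 0.28 (SE) with a limma adjusted p of 6.7e-06. Pam was higher in the IP sample in 4 of 4 preparations, which follows from how it passed the filter.

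IP replicate 1 was the sample at the edge of its group for most of these genes. It had the lowest IP value of Pcsk1, Pcsk1n, Pcsk6 and Pam and the highest of Pcsk5, Cpe and Cpd (1455009_at). The same sample had the lowest summed level of 5 hypocretin neuron markers (15.62 on the log2 scale, against 15.90 to 16.15 in the other IP samples). It had the highest sum of 8 astrocyte markers (13.00, against 10.72 to 12.07) and of 5 microglial markers (10.18, against 7.87 to 9.88). The sums of endothelial and mural markers (8.46) and of other hypothalamic peptide neurons (11.74) were also highest there. The oligodendrocyte sum was not (15.27, against 15.29 in IP replicate 2). The ependymal and choroid plexus sum was likewise highest in IP replicate 2 (15.45). A link between these sums and the levels of the members was not tested. Without IP replicate 1 the log2 fold change was 5.61 for Pcsk1, 3.79 for Pam, 1.97 for Pcsk6, -3.29 for Pcsk5 and -2.86 for Cpd, and all 5 calls held.

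Markers of other cells gave signal in the IP samples. Those of oligodendrocytes, astrocytes, microglia and endothelial and mural cells were all called lower than in the unbound samples, beside 44.2% of all tested genes. The ependymal and choroid plexus list was divided. All 5 hypocretin neuron markers were called higher, beside 4.74% of all tested genes. They were chosen with earlier results of these data known, so their direction is no independent check of the cell type. The summed level of 7 oligodendrocyte markers ranged from 14.16 to 15.29 in the IP samples, against 16.50 to 16.70 in the unbound samples, and all 7 reached 50 on every IP array. For 8 astrocyte markers the sums ranged from 10.72 to 13.00 in the IP samples, against 14.17 to 14.58 in the unbound samples. For 5 microglial markers they ranged from 7.87 to 10.18 in the IP samples, against 11.31 to 12.14 in the unbound samples. For 3 endothelial and mural markers they ranged from 6.38 to 8.46 in the IP samples, against 9.46 to 9.94 in the unbound samples. The astrocyte factor Sox9, the microglial genes C1qa and Cx3cr1 and the endothelial genes Cldn5 and Slco1c1 were under 50 on all 4 IP arrays. For 5 markers of other hypothalamic peptide neurons, of which 4 were called lower, the sums ranged from 10.81 to 11.74 in the IP samples, against 13.47 to 14.17 in the unbound samples. With each array centred on its median, 19.6% of all tested genes were called lower. The counts were then 2 of 7 oligodendrocyte, 7 of 8 astrocyte, 3 of 5 microglial and 2 of 3 endothelial and mural markers. Of the 5 markers of other hypothalamic peptide neurons 4 were still called lower.

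Of 2 tested ependymal and choroid plexus markers, Ccdc153 was called lower. Ttr, the choroid plexus gene transthyretin, was not called, with a log2 difference of 0.84 (limma adjusted p = 0.76). The summed level of these 2 ranged from 10.23 to 15.45 in the IP samples, against 8.27 to 15.90 in the unbound samples. The lowest value of each group came from replicate 4, far below the other 3. Without replicate 4 in both groups the log2 fold change was 5.48 for Pcsk1, 3.59 for Pam, 1.62 for Pcsk6, -2.74 for Pcsk5 and -2.23 for Cpd, and all 5 calls held. Cell type and ribosome binding cannot be told apart between the fractions, and the part of other cells in the levels of Pcsk5, Pcsk7 and Cpd was not tested. The 3′ minus 5′ signal of a gene can reflect RNA breakdown or the amplification of the RNA. For Actb it ranged from 3.14 to 4.11 on the log2 scale in the IP samples, against 3.01 to 3.80 in the unbound samples. For Gapdh it was 2.31, 2.12, 2.27 and 4.50 in the IP samples, against 2.08, 1.97, 1.94 and 3.36 in the unbound samples, with replicate 4 the highest in both.

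The authors normalized the 2 fractions separately, so the scaling between them was varied. With each array centred on its median, 4 of the 8 genes were called higher and 2 lower, beside 20.4% and 19.6% of all tested genes. The added one was Pcsk1n, at 1.37 on the log2 scale (limma adjusted p = 0.00017), and Cpe turned to 0.60, under 2-fold. On the poly-A controls, which were spiked in as RNA, 2 genes were called higher and 5 lower, beside 0.673% and 94.5% of all. On that scale the median probe set fell by 1.97 more than on the hybridisation controls. Pcsk1 and Pam kept their calls there, at 3.39 and 1.60 on the log2 scale, whereas Pcsk1n turned to -1.52 and was called lower (limma adjusted p = 1.4e-05). The Pam value rests on unbound levels under the lower limit of measurement, so no measured rise of Pam is shown on that scale. By probe set, 7 members were called lower on that scale, beside 94.2% of all tested probe sets.

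The poly-A controls averaged 10.02 to 11.21 on the IP arrays and 7.18 to 10.56 on the unbound arrays, so the constant taken from them is imprecise. Pcsk5 and Cpd were called lower and Pcsk1 and Pam higher under all 4 scalings. For Pam every unbound value was under the lower limit of measurement, and for Pcsk5 only 1 of 4 IP values reached it. Without the filter on low values 7 member probe sets were called lower, beside 24.9% of all 45037, the added ones being 1 of Pcsk5 and 2 of Cpd. Pcsk6 missed the stricter threshold of 4-fold. Pam passed it only through unbound values under the lower limit of measurement, against which it was at least 2.99-fold higher.

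**Figure D3:**
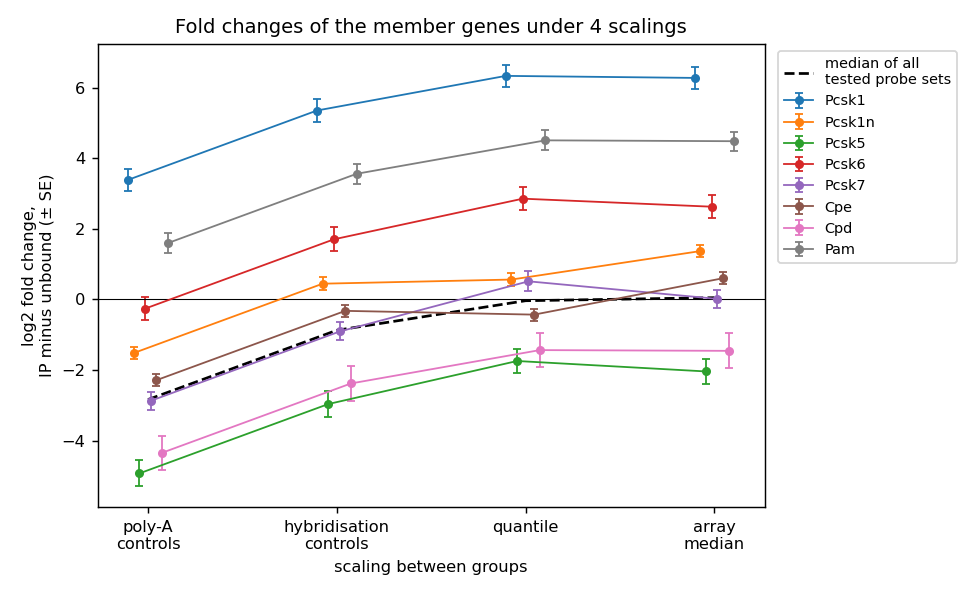
Log2 fold change (y axis, IP minus unbound, points with SE bars) of the 8 tested genes under 4 scalings between the fractions (x axis), with the median of all tested probe sets as a dashed line. Pcsk1 and Pam stay above 0 and Pcsk5 and Cpd below 0 under each of them, while Pcsk6, Pcsk1n, Cpe and Pcsk7 change sign. The Pam values rest on unbound levels under the lower limit of measurement.

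Other genes of the pathway were read from 7 lists. Their counts stand beside 4.74% of all tested genes called higher, 44.2% called lower and a median change of -0.85, and no test of a list was made. After median centring the shares were 20.4% and 19.6%, and on the poly-A controls 0.673% and 94.5%. Among partners of peptide processing, 2 of 9 tested genes rose and 1 fell. Qpct, the glutaminyl cyclase that forms N-terminal pyroglutamate, rose 4.55-fold. Its log2 difference was 2.19 ± 0.25 (SE), and limma gave an adjusted p of 5.8e-05. The cysteine protease cathepsin L, Ctsl, also found in secretory vesicles, rose 2.41-fold (limma adjusted p = 0.00041). Both lost their calls on the poly-A controls, where Qpct stood at 0.22 and Ctsl at -0.70 on the log2 scale. Cpm, a membrane carboxypeptidase of the cell surface, was at least 3.89-fold lower. The list's median was -0.16 on the log2 scale, beside -0.85 over all tested genes. Median centring gave this list 4 higher and 1 lower, and the poly-A controls 0 higher and 7 lower. Scg5, the chaperone 7B2 of the convertase PC2, was named after its value was seen and gave -0.67 on the log2 scale, short of 2-fold.

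Pam needs copper and ascorbate. Of 5 tested genes that supply them 2 fell and 0 rose, with a median of -1.13, a count near the 44.2% of all tested genes that fell. The ascorbate transporter Slc23a2 fell 5.61-fold (limma adjusted p = 2.7e-05) and the copper importer Slc31a1 fell 4.54-fold (limma adjusted p = 0.00036). Both were also called lower on the poly-A controls and with arrays centred on their medians. The vacuolar proton pump acidifies the vesicles in which the convertases work, and 2 of its 17 tested genes fell while 0 rose (median -0.45, beside -0.85 over all). Atp6v1a, a catalytic subunit, fell 3.32-fold (limma adjusted p = 3.2e-05) and Atp6v0a2 fell 2.46-fold (limma adjusted p = 0.0064). After median centring the pump had 2 higher and 0 lower, and on the poly-A controls 0 higher and 17 lower.

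The possible substrates divided. Of 20 tested peptide precursors 2 rose and 14 fell, beside 4.74% and 44.2% of all tested genes, with a median of -2.43. Hcrt rose 32.5-fold and Pdyn, the dynorphin precursor, 23.7-fold, log2 differences of 5.02 ± 0.25 and 4.56 ± 0.38 (SE), with adjusted p-values from limma of 6.5e-07 and 9.9e-06. The precursor of corticotropin-releasing hormone, Crh, fell 12.4-fold (limma adjusted p = 3.6e-05), and Tac2 was at least 10.7-fold lower. After median centring 4 precursors were called higher and 12 lower.

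Of 12 tested substrates of the constitutive pathway 10 fell and 0 rose, with a median of -2.23, beside 44.2% and -0.85 over all tested genes. Notch1, Mmp14 and Adam17 reached 50 on none of the 4 IP arrays and passed the filter through the unbound samples alone. Notch1, a receptor that furin cuts on its way to the surface, and the matrix protease Mmp14 were at least 6.88- and 1.93-fold lower. The lipoprotein receptor Lrp1 fell 6.46-fold (limma adjusted p = 1e-04) and the sheddase Adam17 was at least 3.21-fold lower. After median centring 7 of the 12 were called lower and 0 higher.

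Of 9 tested peptidases that break peptides down 4 fell and 0 rose, with a median of -0.75, which is near the 44.2% and -0.85 over all tested genes. The membrane peptidase neprilysin, Mme, was at least 4.03-fold lower, with 1 of 4 IP samples at the lower limit of measurement. Neurolysin, Nln, fell 4.19-fold, the insulin-degrading enzyme Ide 3.76-fold and the cytosolic aminopeptidase Npepps 2.26-fold. The last 2 were not called after median centring. Among other convertases of the subtilisin type, Mbtps1, the site-1 protease, was the 1 tested gene and gave -0.48 on the log2 scale (limma adjusted p = 0.059).

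**Figure D4:**
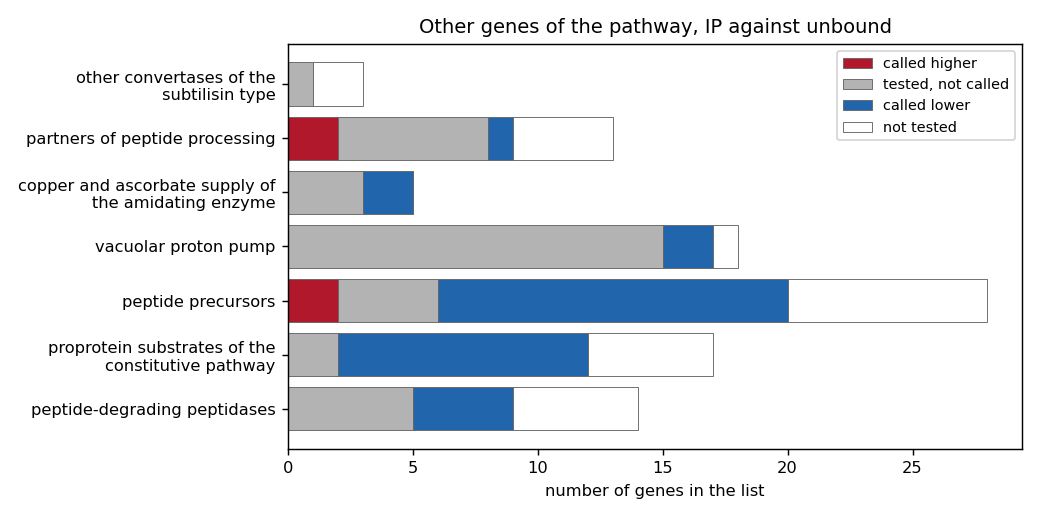
Number of genes (x axis) in each of 7 pathway lists that were called higher in the IP samples (red), tested but not called (grey), called lower (blue) or not tested (white). Peptide precursors have 2 higher and 14 lower of 20 tested, and the vacuolar proton pump 0 higher and 2 lower of 17.

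The 5 genes outside the members whose levels were most like those of Pcsk1 over the 8 arrays were Gm2694, Tmem114, Adgra1, Tmem159 and Emp3, with Pearson correlations of 0.995 to 0.997. Both genes of a pair were read on the same 8 arrays and share the split into fractions, and 178 genes passed 0.95. With the mean of each group taken off, the correlations of these 5 with Pcsk1 were 0.77 to 0.84. Adgra1, an adhesion G protein-coupled receptor, was 3.63-fold higher in the IP samples and Tmem159 7.14-fold, both on all 8 arrays at or above 50. Tmem114 was at least 29.0-fold, Gm2694 at least 1.99-fold and Emp3 at least 1.83-fold higher.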

How the data were processed

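RNA of 4 immunoprecipitates and 4 unbound fractions was measured on 1 Affymetrix array each. The authors deposited log2 values per probe set, made with GCRMA per the submitters' processing notes (version not given in the sources used here), with each group normalized separately per the design text. RNA was amplified with an Affymetrix 2-cycle kit per the labels' protocols.

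From these values 18 hybridisation controls set 1 constant per group, as deposited 0.02 apart (IP minus unbound). No control probe set (64 in all) entered the fit. Probe sets at or above 50 on at least 4 arrays were fitted with limma 3.58.1 in R 4.3.3 (mean-variance trend, no block, all 8 arrays) and adjusted by Benjamini-Hochberg. The fit was tested on simulated data. Where a group lay under 50 on some or all arrays, those values were raised to 50 and the fold given as at least. Gene names came from the platform annotation. Figures used matplotlib 3.10.9 in Python 3.11.15.

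All members were named, with up to 4 called genes of each list by size of change (filled up to 2 by level), Hcrt, and the 5 genes most like Pcsk1. The members, lists and tests were chosen with earlier results of these data known.

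Replicate numbers join fractions of 1 preparation per the labels. Over tested genes, same-numbered arrays deviated from their group means with correlations of 0.46, 0.32, 0.28 and 0.58, each above the correlations with other numbers. The replicate block, no shift, median centring, quantile normalization, poly-A controls, no filter, a minimum of 100, no trend, adjusted p alone, 4-fold, averaged probe sets per gene, and fits without single arrays or preparations were tried as alternatives.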

Additional observations from a re-analysis of the deposited data

Results flagged for a closer look

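2 values stood far from the other 3 of their group, with a gap to the nearest sample that passed Dixon's 95% critical ratio for 4 samples. Pcsk1n stood at 13.59 in IP replicate 1, below the other IP samples (ratio 0.84). Pam stood at 4.04 in unbound replicate 4, above the other unbound samples (ratio 0.90) but under the lower limit of measurement. Of 20 groups of 4 looked at, chance alone gives such a gap in about 5% of groups.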

How the results depend on the processing

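Pcsk1 and Pam were called higher and Pcsk5 and Cpd lower under every alternative in which they were tested, 23 for Pcsk1, Pcsk5 and Cpd and 22 for Pam. The 4-fold call of Pam rests on unbound values under the lower limit of measurement, against which it was at least 2.99-fold higher. Pcsk1 ranged from 3.39 to 6.34, Pam from 1.60 to 4.51, Pcsk5 from -4.93 to -1.74 and Cpd from -4.35 to -1.44 on the log2 scale. The largest moves came from the scaling between groups. On the poly-A controls 7 member probe sets and 5 member genes were called lower, against 4 and 2. Over all tested, 94.2% of probe sets and 94.5% of genes were called lower there. Pcsk1n reversed to -1.52 and Pcsk6 to -0.26 on that scale. Without the filter on low values 7 member probe sets were called lower, beside 24.9% of all probe sets. Median centring reversed Pcsk7 to 0.017 and Cpe to 0.60, and quantile normalization reversed Pcsk7 to 0.51, none of them called. With the minimum of 100, Pam and Pcsk7 were not tested. Leaving out 1 array or 1 preparation kept 3 member probe sets and 3 genes higher, with 4 to 5 probe sets and 2 to 3 genes lower. The fit with the replicate block gave the same counts, 3 and 4 probe sets and 3 and 2 genes higher and lower, and changed no call of a member. In the main fit 4.88% of all tested probe sets and 4.74% of genes were called higher, and 45.1% and 44.2% lower. A signal under 50 limits what can be said of Furin, Pcsk7, Pam in the unbound samples and most Pcsk5 and Cpd probe sets.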
